A study of Mus musculus with 15 samples.

Results

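The genes described here encode collagens, laminin chains and 12 further components of the extracellular matrix, measured by RNA sequencing of mouse colon. They were taken by name from the deposited log2 table: every gene symbol made of Col, a number, a and a number, every laminin chain (Lama, Lamb or Lamc with a number), and *Fn1*, *Sparc*, *Fbn1*, *Eln*, *Tnc*, *Postn*, *Lox*, *Loxl1*, *Loxl2*, *Lum*, *Dcn* and *Tgfbi*. This gave 64 of the 17531 genes in that table, and all 64 passed the expression filter that left 17477 genes for testing. The count table held 32544 symbols and 3 further collagens, *Col19a1*, *Col2a1* and *Col9a1*, with 73, 14 and 27 counts over all libraries, which were not tested. All 64 are protein coding genes and lie on 19 chromosomes. They were chosen by name among the rows of that table, with earlier results of these data known.

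The groups crossed 3 *Tert* genotypes with 2 treatments. *Tert* encodes the reverse transcriptase of telomerase. KO mice lack *Tert* (TERT-/- in the labels), VAA mice carry a form of it without enzyme activity, and WT mice are TERT+/+. Mice of each genotype, 8 to 12 weeks old, drank 3% dextran sulfate sodium (DSS) for 4 days and plain water for 4 more, with colon taken on day 8, or stayed untreated. DSS is a sulfated polysaccharide that damages the colonic lining and brings on colitis. There were 3 DSS and 2 untreated libraries for each genotype, 15 in all. Libraries are given here by replicate number, in the order 1, 2, 3. The labels state no cell type or promoter limits on the alleles and do not say whether replicates are separate mice, so a p-value here reflects how far these libraries vary, which may be technical.

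The matrix of the colon wall has a few well known parts. Fibroblasts and smooth muscle make the fibrillar collagens I, III and V, which assemble into fibrils, are cross-linked by lysyl oxidases and carry small proteoglycans such as decorin and lumican. Epithelium, muscle and vessels each rest on a basement membrane, a sheet of collagen IV and laminin, and laminins with the alpha 3 and beta 3 chains tie epithelial cells to it. Glycoproteins such as fibronectin, periostin and tenascin C link cells to this scaffold and are made in quantity during repair.

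Library totals ran from 10.56 to 17.54 M counts. *Tert* had 0, 0 and 1 counts in KO DSS and 1 and 1 in KO untreated libraries, 29, 12 and 7 in VAA DSS and 25 and 15 in VAA untreated libraries, and 26, 36 and 23 in WT DSS and 37 and 40 in WT untreated libraries. All 9 DSS libraries were female by their Y-linked genes, and 2 of the 6 untreated libraries (KO replicate 2 and WT replicate 2) were male. VAA DSS replicate 3 stood apart from the other 14 libraries, with a score of -102 on a second principal component that held 19.3% of the variance, where the others ran from -20.1 to 43.5. Values below that lose their call, turn or move by over 1.5 times when this library is left out are given with and without it. Calls of cell type markers are the exception and are given only with all libraries in. Levels are CPM, each gene's share of a library's counts scaled to a common total with trimmed mean factors. Fold changes are log2 and stand with a standard error (±) worked back from edgeR's F statistic. It is the absolute fold change divided by the square root of F. Calls are genes with an adjusted p under 0.05 (Benjamini-Hochberg, over 17477 genes) in edgeR's quasi-likelihood test, fitted to all 15 libraries.

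Promoters of members that moved together are shown first, as the 250 bases before the start that RefSeq gives on GRCm38.p6 (mm10). RefSeq's table held a promoter for 43 of the 64 members. Capitals mark every match, on either strand, to AP-1 (TGANTCA), the SMAD element CAGAC, the CArG box bound by serum response factor, the CCAAT box (CCAAT), the GC box (GGGCGG) and the TATA box (TATAAA). *Postn* (chr3:54360857-54361106, plus strand) and *Lama2* (chr10:27616943-27617192, minus strand) fell with DSS in all 3 genotypes. *Col14a1* and *Lum* have no entry.
Postn: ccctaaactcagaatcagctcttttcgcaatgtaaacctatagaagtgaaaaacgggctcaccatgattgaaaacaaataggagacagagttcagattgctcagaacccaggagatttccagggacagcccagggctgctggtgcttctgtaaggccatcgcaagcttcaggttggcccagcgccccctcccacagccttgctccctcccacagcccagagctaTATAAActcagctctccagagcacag
Lama2: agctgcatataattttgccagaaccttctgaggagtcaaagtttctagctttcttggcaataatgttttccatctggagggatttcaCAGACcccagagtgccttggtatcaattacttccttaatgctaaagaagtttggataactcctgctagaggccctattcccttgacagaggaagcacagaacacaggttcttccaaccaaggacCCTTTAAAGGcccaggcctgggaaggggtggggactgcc
*Col18a1* (chr10:77166531-77166780, minus strand), *Lama5* (chr2:180225860-180226109, minus strand) and *Tgfbi* (chr13:56609336-56609585, plus strand) rose with DSS on average and were lower in KO than in VAA colon under DSS.
Col18a1: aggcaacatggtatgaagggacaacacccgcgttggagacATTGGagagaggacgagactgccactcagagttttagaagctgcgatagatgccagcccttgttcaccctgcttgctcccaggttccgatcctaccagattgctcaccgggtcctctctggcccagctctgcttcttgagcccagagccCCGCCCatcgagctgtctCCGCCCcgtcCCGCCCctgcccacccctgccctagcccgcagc
Lama5: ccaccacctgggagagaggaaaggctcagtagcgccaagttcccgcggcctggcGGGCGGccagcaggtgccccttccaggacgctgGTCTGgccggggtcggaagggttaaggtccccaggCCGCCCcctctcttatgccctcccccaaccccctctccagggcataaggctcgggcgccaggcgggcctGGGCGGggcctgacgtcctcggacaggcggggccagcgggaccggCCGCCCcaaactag
Tgfbi: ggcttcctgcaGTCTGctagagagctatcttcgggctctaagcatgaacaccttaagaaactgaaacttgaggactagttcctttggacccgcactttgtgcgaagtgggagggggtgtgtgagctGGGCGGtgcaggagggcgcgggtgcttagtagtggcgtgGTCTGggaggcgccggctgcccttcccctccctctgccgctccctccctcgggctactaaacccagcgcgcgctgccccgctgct
*Col4a5* (chrX:141475169-141475418, plus strand) and *Col4a6* (chrX:141474077-141474326, minus strand) are read in opposite directions from starts 1309 bases apart and fell together.
Col4a5: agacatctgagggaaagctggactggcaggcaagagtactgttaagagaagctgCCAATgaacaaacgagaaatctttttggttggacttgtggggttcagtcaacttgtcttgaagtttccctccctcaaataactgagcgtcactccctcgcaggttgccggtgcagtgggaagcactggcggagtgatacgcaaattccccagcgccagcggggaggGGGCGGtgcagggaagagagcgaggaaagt
Col4a6: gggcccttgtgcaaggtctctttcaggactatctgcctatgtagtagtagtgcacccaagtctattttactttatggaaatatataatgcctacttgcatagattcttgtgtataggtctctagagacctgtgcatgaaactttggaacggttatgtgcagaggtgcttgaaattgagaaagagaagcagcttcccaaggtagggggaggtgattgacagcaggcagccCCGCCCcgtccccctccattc
*Col4a1* and *Col4a2*, the other such pair that moved together, overlap at their 5′ ends by 22 bases (chr8:11312805-11312826), shown on the strand of *Col4a1*.
Col4a1 and Col4a2: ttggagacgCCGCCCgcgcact

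A TATA box stood 26 bases before the start of *Postn*. *Lama2* held a CArG box 39 bases before its start, and of the members with an entry only *Col6a4* and *Lama2* held one. The GC box lay 3 times in the *Col18a1* promoter and 4 times in that of *Lama5*. Over the 43 members, 26 held a GC box (60.5%), against 32.7% of all 32851 promoters. For each member only the promoter nearest its annotated start was used, while the second share is over every entry. These sets are unlike, so the shares here and below are not directly comparable. The SMAD element was in 21 members (48.8%) and 42.2% of all promoters, the CCAAT box in 13 (30.2%) and 33.8%, and the TATA box in 7 (16.3%) and 12.4%. AP-1 letters were in 1 member promoter, that of *Col6a1* (2.33%), and in 6.75% of all promoters, and the CArG box in 2 (4.65%) and 1.47%. These matches describe letters in a window and no binding was measured.

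In untreated colon the most abundant member per length was *Col3a1*, the type III fibrillar collagen chain, with 61.7 to 102 CPM per kb of exon and a median of 84.0 over 6 libraries. *Fn1* (fibronectin) followed with a median of 57.2 CPM per kb, then *Postn* (periostin) with 47.2, *Sparc* (a collagen-binding glycoprotein) with 40.7 and *Col1a1* with 36.2. The ranges of neighbours in this order overlapped. Length was that of all annotated exons of a gene merged, 12.43 kb for *Col1a2* against 6.56 kb for *Col1a1*. The order thus depends on the annotation as well. *Lamb3* and *Lama3*, chains of epithelial laminin, had medians of 21.0 and 20.1 CPM per kb. *Col6a6* was the lowest at 0.0594 CPM per kb.

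Together the 64 genes took 0.306%, 0.259% and 0.368% of all counts in KO DSS libraries and 0.476% and 0.566% in KO untreated libraries. Their share was 0.599%, 0.42% and 1.19% in VAA DSS libraries and 0.52% and 0.537% in VAA untreated libraries. WT libraries gave 0.419%, 0.49% and 0.392% with DSS and 0.645% and 0.653% untreated. All KO and WT libraries with DSS lay below their untreated libraries, and in VAA 2 DSS libraries lay above the untreated ones and 1 below. VAA DSS replicate 3 stood above all other libraries. That library held the highest CPM of all 15 for 42 of the 64 genes. Its CPM was above 2 times the mean of the other VAA DSS replicates for 40 of them, with a median ratio of 2.19, against 0.988 over all genes tested. The median ratio was 2.54 over fibrillar collagens, 2.34 over collagen VI and 1.92 over laminins, and *Col6a6*, *Col4a3*, *Lama3* and *Col24a1* were the 4 genes with a ratio below 1. Some marker sums of other cell types were high in the same library, and others were not. Smooth muscle markers summed to 2410 CPM, above all other DSS libraries and below all untreated ones (3790 to 6750). Epithelial markers had their lowest sum there (5510 CPM). The leukocyte (377), adipocyte (9.89) and skeletal muscle (5.76) sums lay within the range of the other libraries. The summed CPM of 6 endothelial markers was 222, against 50 to 93.7 in the other 14 libraries. The sum of 5 mesothelial markers was 97.7 against 3.97 to 45.9, and that of 4 enteric glial markers 56.7 against 4.43 to 15.8. The 7 squamous epithelial markers summed to 25 CPM against 2.76 to 14.9. *Dsg3* gave 16.4 CPM of that sum, *Krtdap* was at 0, and *Krt5*, *Krt13* and *Krt14* were each higher in some other library. The 8 fibroblast markers summed to 476 CPM there, against 241 to 401 elsewhere. Of these, *Pdgfra* (224 CPM), *Pdgfrb* (83.2) and *Twist2* (2.5) were highest in that library, while *Thy1*, *Dpt*, *Pi16*, *Dpep1* and *Cd81* were not. The part of all these markers in the matrix result was not tested. In bulk tissue, fewer cells of a type and less RNA per cell cannot be told apart.

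**Figure D1:**
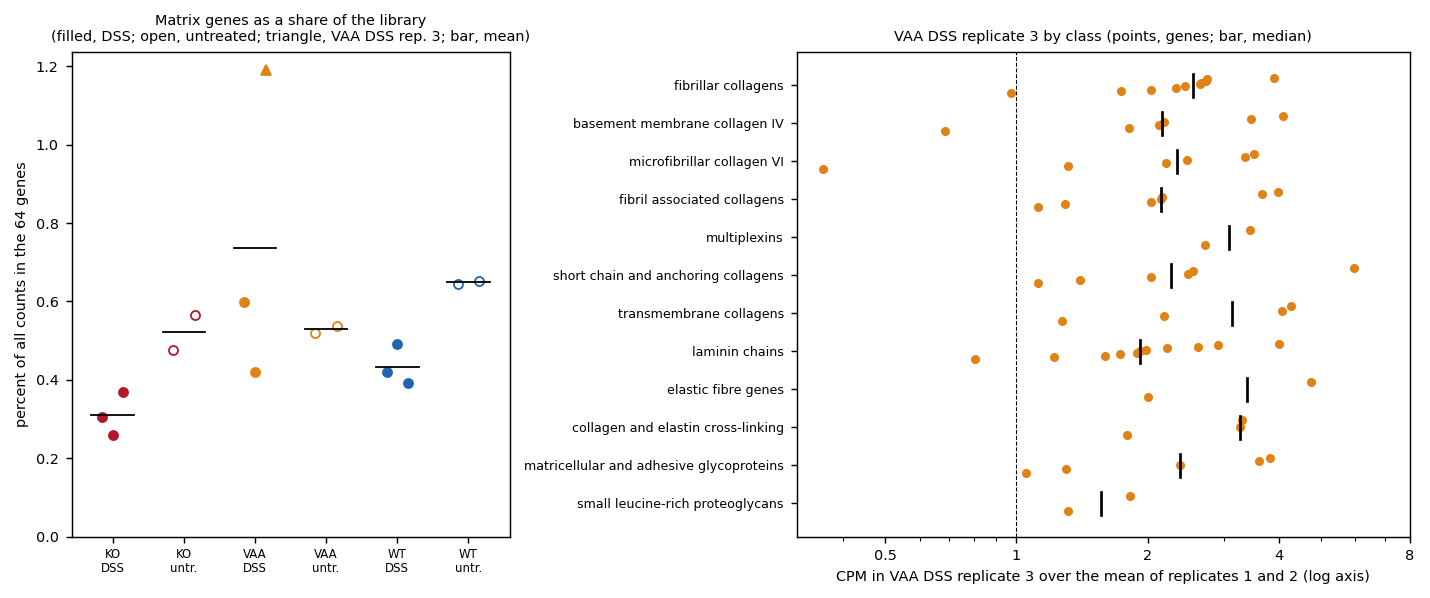
Left, the percent of each library's counts taken by the 64 matrix genes (vertical axis), by group, with 1 point per library and a bar at the mean; VAA DSS replicate 3 reached 1.19%. Right, for each gene class, the CPM of VAA DSS replicate 3 over the mean of replicates 1 and 2 (log axis), with 1 point per gene and a bar at the class median; 40 of 64 genes lie above 2.

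With DSS, 2 members rose and 9 fell in KO colon, 17.2% of members called against 10.7% of all genes tested (5.59% higher and 5.06% lower). In VAA colon 11 rose and 7 fell, 28.1% against 20.4% of all genes (10.9% higher and 9.54% lower). In WT colon 5 rose and 15 fell, 31.2% against 26.6% (14.1% higher and 12.5% lower). The median member had a log2 fold change of -0.54 in KO, 0.45 in VAA and -0.50 in WT, where the median of all genes was 0, 0.06 and -0.01. With VAA DSS replicate 3 left out, the median in VAA was -0.09, with 7 rising and 13 falling (background 28.2%, 15.5% higher and 12.8% lower). The tests in the other genotypes share the spread of that library and called more without it: 2 higher and 25 lower in KO (background 21.6%, 10.8% in each direction), and 6 higher and 22 lower in WT (background 37.5%, 20.3% higher and 17.2% lower). Averaged over genotypes 8 members rose and 17 fell, 39.1% against 42.6% of all genes (22.5% higher and 20% lower). Without that library 8 rose and 29 fell, 57.8% against 52.7% (27.6% higher and 25.2% lower). Of the 25, *Col15a1*, *Col4a3* and *Fn1* lost the call when a single library was left out: *Col15a1* without any of 9 libraries (KO DSS 1 and 2, both KO untreated, VAA DSS 1, both VAA untreated, WT DSS 1 and WT untreated 2), *Col4a3* without KO DSS 3, KO untreated 1, VAA untreated 1 or WT untreated 2, and *Fn1* without KO untreated 2, VAA untreated 2 or WT untreated 1 (edgeR adjusted p up to 0.08). Single libraries of the groups compared decided part of these counts. In KO the 11 calls became 5, 4, 5 and 4 without KO DSS replicate 1, KO DSS replicate 2, KO untreated replicate 1 and KO untreated replicate 2, and in VAA the 18 became 9 and 8 without VAA untreated replicates 1 and 2. In WT the 20 became 13, 13, 10 and 8 without WT DSS replicate 1, WT DSS replicate 3, WT untreated replicate 1 and WT untreated replicate 2. With sex as a covariate KO had 4 calls and WT 13. With the replicate number as a block KO had 20, and shares over all genes are not given for these settings. Members called under every such omission were *Col14a1*, *Lum* and *Postn* in KO, *Col14a1*, *Col18a1*, *Lama1*, *Lama2*, *Lama5*, *Postn* and *Tgfbi* among those in VAA, and *Col14a1*, *Col4a5*, *Col4a6*, *Col8a2*, *Lama2*, *Lama3*, *Lum* and *Postn* in WT.

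**Figure D2:**
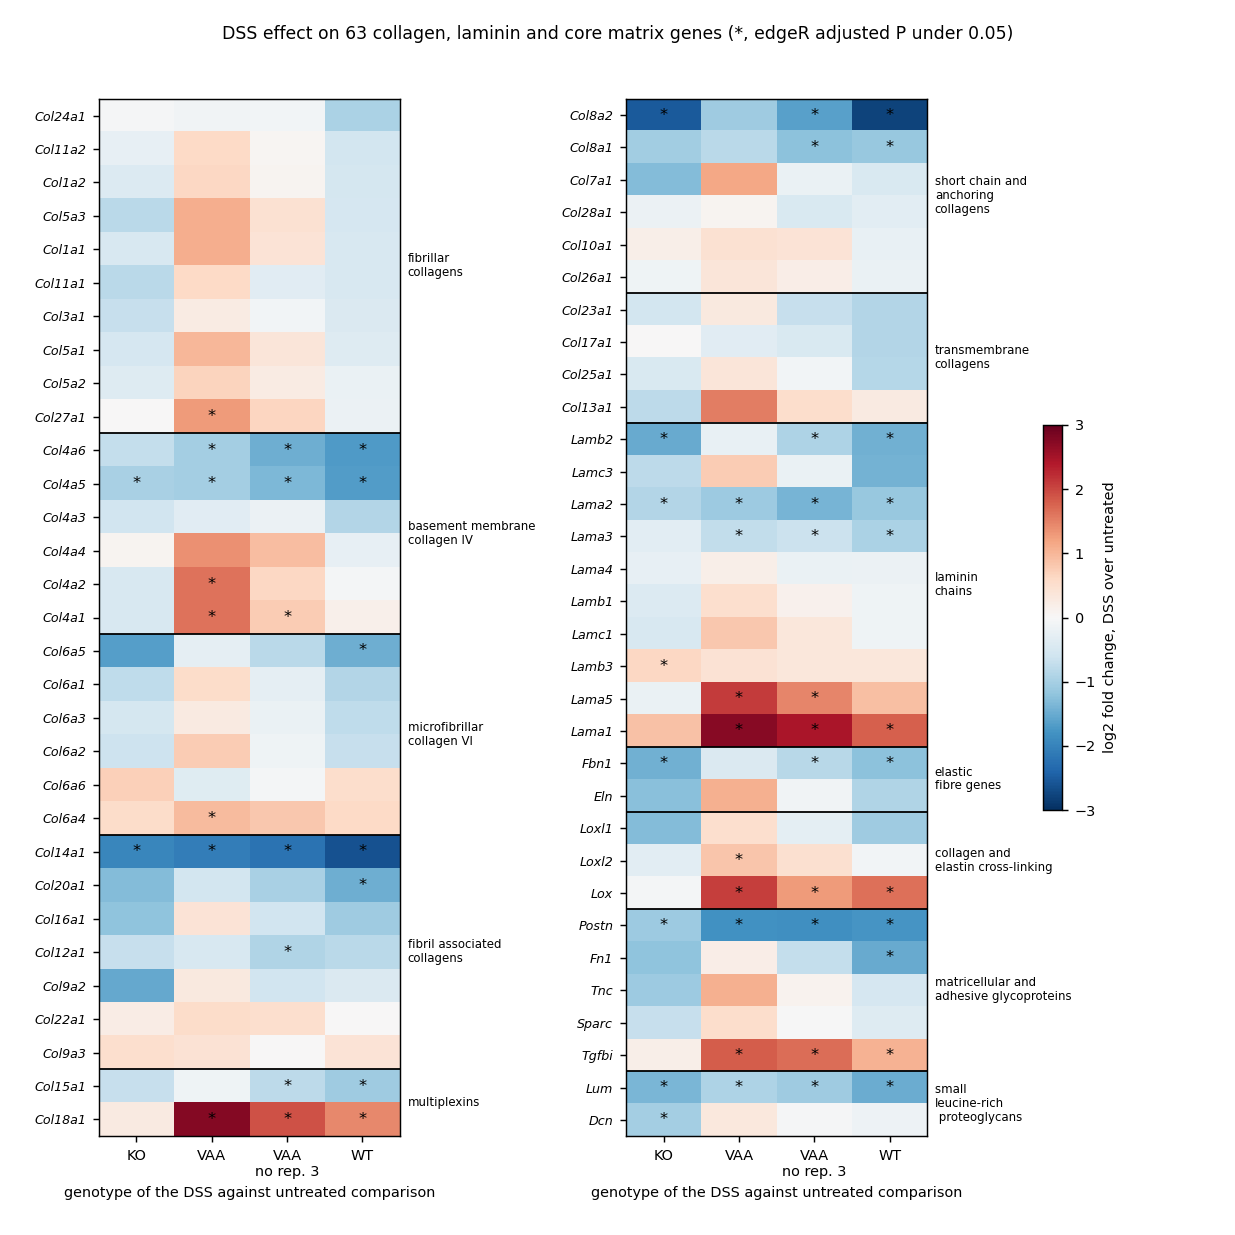
Log2 fold change of DSS over untreated (colour) for 63 of the 64 genes (rows, by class), in KO, VAA, VAA without DSS replicate 3, and WT (columns); a star marks an edgeR adjusted p under 0.05. *Col14a1*, *Lum*, *Postn*, *Lama2* and *Col4a5* fell in all 3 genotypes.

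The same 5 genes fell in each of the genotypes: *Col14a1*, *Lum*, *Postn*, *Lama2* and *Col4a5*. There were 12 such genes when VAA DSS replicate 3 was left out. The share of all genes called lower in all 3 genotypes is not given here, so the 5 and the 12 cannot be set against it. *Postn* encodes periostin, a matricellular protein of fibroblasts. *Postn* had 160, 146 and 197 CPM with DSS and 292 and 422 CPM untreated in KO colon, 101, 135 and 124 with DSS and 386 and 462 untreated in VAA colon, and 123, 124 and 130 with DSS and 449 and 399 untreated in WT colon. Every DSS library was below every untreated library of its genotype. The log2 fold change was -1.09 ± 0.17 in KO, -1.82 ± 0.18 in VAA and -1.76 ± 0.17 in WT (edgeR adjusted p 0.0024, 2e-05 and 3.6e-05). *Col14a1* encodes a collagen that sits on fibrils. *Col14a1* had 14.3, 10.7 and 10.8 CPM with DSS and 35.5 and 56.6 CPM untreated in KO colon, 9.57, 10.3 and 12.8 with DSS and 48.4 and 43.4 untreated in VAA colon, and 9.63, 12.3 and 5.61 with DSS and 64.4 and 48.3 untreated in WT colon. It had the lowest of these fold changes, at -1.95 ± 0.28 in KO, -2.08 ± 0.28 in VAA and -2.62 ± 0.28 in WT, and no DSS library overlapped the untreated ones. *Lum* encodes lumican, a proteoglycan that regulates fibril thickness. *Lum* had 15.4, 13.1 and 16.1 CPM with DSS and 32.0 and 45.1 CPM untreated in KO colon, 23.2, 23.4 and 30.5 with DSS and 46.2 and 51.7 untreated in VAA colon, and 17.7, 19.4 and 14.9 with DSS and 59.8 and 38.0 untreated in WT colon. The fold changes were -1.37 ± 0.21 in KO, -0.93 ± 0.21 in VAA and -1.5 ± 0.21 in WT, with groups apart in each. The call in VAA was lost without VAA untreated replicate 2 (-0.85, edgeR adjusted p 0.061).

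*Lama2* encodes the laminin alpha 2 chain of muscle and Schwann cell basement membranes. *Lama2* had 24.7, 27.8 and 33.7 CPM with DSS and 42.8 and 62.0 CPM untreated in KO colon, 23.1, 24.8 and 41.3 with DSS and 61.0 and 64.2 untreated in VAA colon, and 27.1, 27.8 and 31.3 with DSS and 62.6 and 63.3 untreated in WT colon. DSS and untreated libraries did not overlap in any genotype, VAA DSS replicate 3 being the highest of the 9 DSS libraries. Fold changes were -0.87 ± 0.23 in KO, -1.08 ± 0.23 in VAA and -1.13 ± 0.23 in WT, and the call in KO was lost without KO DSS replicate 1, KO DSS replicate 2 or KO untreated replicate 2 (-0.57 without the last, edgeR adjusted p 0.24). *Col4a5*, the alpha 5 chain of collagen IV, had fold changes of -0.98 ± 0.25 in KO, -1.01 ± 0.25 in VAA and -1.68 ± 0.25 in WT. Its calls in KO and VAA each ended without any 1 of the untreated libraries of that genotype or, in KO, DSS replicates 1 or 2 (edgeR adjusted p up to 0.12). The 8 smooth muscle markers moved with these genes: their summed CPM was 599 to 1900 in KO DSS against 3790 to 4310 in KO untreated libraries, 683 to 2410 against 4270 to 5570 in VAA, and 576 to 933 against 5920 to 6750 in WT. Of the 8, 6 fell in KO, 7 in VAA and 8 in WT. Fibroblast markers summed to 241 to 259 CPM in KO DSS against 350 to 401 in KO untreated libraries, and to 266 to 323 in WT DSS against 366 to 393 in WT untreated. In VAA they were 280 to 476 CPM with DSS against 360 to 380 untreated. The part of muscle and fibroblast content in the fall of these 5 genes was not tested.

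**Figure D3:**
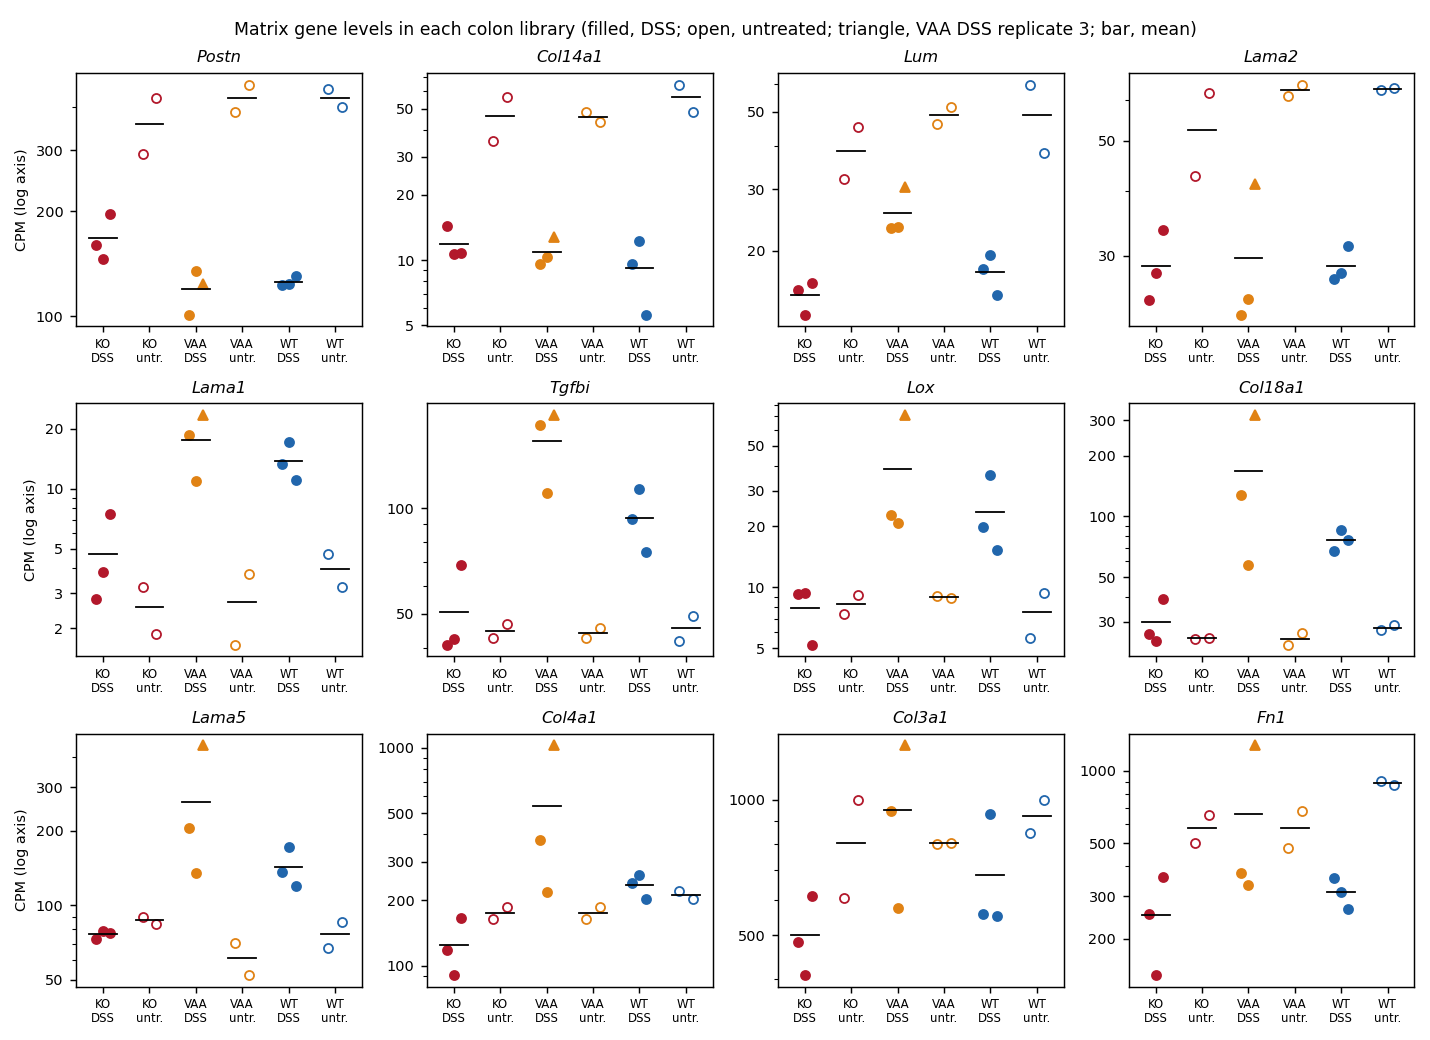
CPM (log axes) of 12 matrix genes in each library, by genotype and treatment, with filled points for DSS, open points for untreated libraries, a triangle for VAA DSS replicate 3 and a bar at the mean. *Postn*, *Col14a1*, *Lum* and *Lama2* are lower with DSS in every genotype and *Tgfbi*, *Lox*, *Col18a1* and *Lama5* are higher in every VAA and WT DSS library.

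The collagen IV genes form 3 pairs, each with its 2 members head to head, and are given pair by pair. *Col4a1* and *Col4a2* encode the chains found in nearly all basement membranes. *Col4a1* had 118, 90.5 and 166 CPM with DSS and 163 and 186 CPM untreated in KO colon, 379, 218 and 1029 with DSS and 164 and 185 untreated in VAA colon, and 239, 262 and 202 with DSS and 219 and 203 untreated in WT colon. *Col4a2* had 66.0, 50.5 and 91.4 CPM with DSS and 92.9 and 102 CPM untreated in KO colon, 190, 121 and 635 with DSS and 88.2 and 115 untreated in VAA colon, and 140, 135 and 106 with DSS and 139 and 124 untreated in WT colon. Both were highest in VAA DSS replicate 3, and all VAA DSS libraries were above their untreated libraries. In KO, 2 DSS libraries were below for *Col4a1* and all 3 for *Col4a2*, and the WT groups overlapped. The 2 genes overlap by 22 bases, fewer than the 76 of a read, and the strand setting of the counting is not given. The part of reads at these shared ends was not tested. In VAA they rose by 1.63 ± 0.48 and 1.63 ± 0.52 (edgeR adjusted p 0.027 and 0.041), and without replicate 3 by 0.77 ± 0.26 (adjusted p 0.043) and 0.61 ± 0.26 (adjusted p 0.093), the second no longer called. Both calls also ended without VAA untreated replicate 1 or 2, and that of *Col4a2* without any single KO or WT library other than KO DSS replicates 2 and 3 (edgeR adjusted p up to 0.23). The ratio of *Col4a2* to *Col4a1* per kb of exon stayed between 0.565 and 0.715 in all 15 libraries. *Col4a6*, the partner of *Col4a5*, also fell in WT and VAA. *Col4a6* had 6.98, 5.87 and 7.43 CPM with DSS and 11.7 and 10.3 CPM untreated in KO colon, 5.84, 5.26 and 11.8 with DSS and 13.2 and 17.3 untreated in VAA colon, and 4.38, 3.37 and 5.07 with DSS and 15 and 12.7 untreated in WT colon. Its fold change was -0.71 ± 0.30 in KO (not called, edgeR adjusted p 0.16), -1.01 ± 0.30 in VAA and -1.69 ± 0.31 in WT. Leaving out VAA DSS replicate 1 or 2 or VAA untreated replicate 1 or 2 ended the call in VAA (edgeR adjusted p up to 0.2), and without VAA DSS replicate 3 the gene was called in KO as well (-0.70 ± 0.20, adjusted p 0.024). The ratio of *Col4a5* to *Col4a6* ran from 1.85 to 3.01 with no split by treatment. *Col4a3* and *Col4a4*, chains best known from the kidney and lung, had at most 4.79 and 5.38 CPM. Neither was called in a single genotype.

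*Lamb3* encodes the laminin beta 3 chain of epithelial basement membrane. *Lamb3* had 241, 204 and 198 CPM with DSS and 140 and 140 CPM untreated in KO colon, 140, 199 and 207 with DSS and 130 and 139 untreated in VAA colon, and 168, 152 and 189 with DSS and 131 and 139 untreated in WT colon. It rose in KO (0.62 ± 0.16, edgeR adjusted p 0.029) but not past the threshold in VAA (0.44 ± 0.16) or WT (0.33 ± 0.16), although groups were apart in each. The KO call ended without KO DSS replicate 1 or 2 or either KO untreated library (edgeR adjusted p up to 0.16). *Lama3* encodes the alpha 3 chain of the same laminin. *Lama3* had 164, 108 and 130 CPM with DSS and 161 and 174 CPM untreated in KO colon, 122, 160 and 113 with DSS and 213 and 228 untreated in VAA colon, and 142, 93.4 and 107 with DSS and 225 and 219 untreated in WT colon. It fell in VAA (-0.74 ± 0.20) and WT (-0.96 ± 0.20), and was -0.32 ± 0.20 in KO, where the groups overlapped and no call was made. The VAA call was lost without VAA DSS replicate 1 or either VAA untreated library (edgeR adjusted p up to 0.1).

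The ratio of these chains differed with treatment. *Lamb3* over *Lama3*, each as CPM per kb, was 2.39, 3.06 and 2.48 in KO DSS against 1.41 and 1.3 in KO untreated libraries. It was 1.87, 2.02 and 2.98 in VAA DSS against 0.991 and 0.99 in VAA untreated libraries, and 1.93, 2.65 and 2.87 in WT DSS against 0.951 and 1.03 in WT untreated libraries. The lowest DSS library was above the highest untreated library in all 3 genotypes. The 7 epithelial markers summed to 8480 to 10000 CPM in KO DSS against 6020 to 7530 in KO untreated libraries, 5510 to 7600 against 6730 to 6800 in VAA, and 6260 to 6760 against 6210 to 6730 in WT. The ratio is within a library and rests on 2 genes, so by itself it shows unequal change and not which chain changed. In the comparison averaged over genotypes *Lamb3* rose (0.46 ± 0.09) and *Lama3* fell (-0.67 ± 0.11, edgeR adjusted p 0.0013 and 0.00038). A split by treatment was not particular to this pair. *Col6a2* over *Col6a1* per kb was 0.448 to 0.512 in DSS and 0.401 to 0.444 in untreated libraries.

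**Figure D4:**
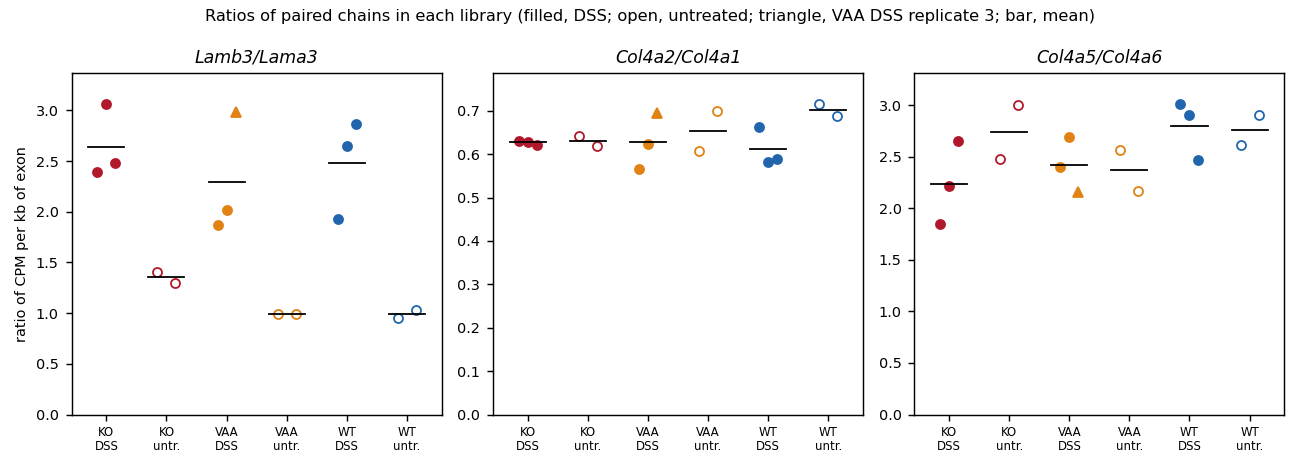
Ratio of CPM per kb of exon between chains of 1 trimer or gene pair in each library (vertical axes from 0), with filled points for DSS, open points for untreated libraries, a triangle for VAA DSS replicate 3 and a bar at the mean. *Lamb3*/Lama3 separates DSS (1.87 to 3.06) from untreated libraries (0.951 to 1.41), and *Col4a2*/Col4a1 (0.565 to 0.715) and *Col4a5*/Col4a6 (1.85 to 3.01) do not.

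*Lama1* and *Lama5* encode alpha chains of embryonic and of adult epithelial basement membranes. *Lama1* had 2.79, 3.82 and 7.51 CPM with DSS and 3.23 and 1.86 CPM untreated in KO colon, 18.6, 10.9 and 23.5 with DSS and 1.65 and 3.75 untreated in VAA colon, and 13.3, 17.2 and 11.1 with DSS and 4.72 and 3.23 untreated in WT colon. The WT and VAA DSS libraries were all above the untreated ones, and the KO groups overlapped. *Lama1* rose in VAA (2.72 ± 0.50) and WT (1.80 ± 0.47) and had 0.88 ± 0.49 in KO, not called (edgeR adjusted p 0.27). The WT call was lost without WT untreated replicate 1 (2.08, adjusted p 0.062) or 2 (1.55, 0.12). *Lama5* had 73.1, 78.6 and 77.5 CPM with DSS and 89.5 and 84.3 CPM untreated in KO colon, 206, 135 and 445 with DSS and 70.6 and 52.2 untreated in VAA colon, and 136, 172 and 120 with DSS and 67.3 and 85.8 untreated in WT colon. *Lama5* was above the untreated libraries in every VAA and WT DSS library, and below them in every KO DSS library. It rose in VAA by 2.09 ± 0.38 (edgeR adjusted p 0.0018), or 1.47 ± 0.22 without replicate 3. In WT 0.90 ± 0.36 was not called (adjusted p 0.085) until VAA DSS replicate 2 or 3 was left out (adjusted p 0.024 and 0.0031), and in KO it was -0.19 ± 0.35. *Lamb2*, the beta 2 chain of muscle and vessel basement membranes, went the other way. *Lamb2* had 15.1, 16.1 and 24.5 CPM with DSS and 56.3 and 50.1 CPM untreated in KO colon, 31.7, 22.4 and 78.8 with DSS and 48.5 and 54.0 untreated in VAA colon, and 28.7, 22.6 and 16.7 with DSS and 63.4 and 59.3 untreated in WT colon. KO and WT DSS libraries were all below their untreated libraries, while VAA DSS replicate 3 was above its own. *Lamb2* fell in KO (-1.52 ± 0.40) and WT (-1.44 ± 0.40). The value in VAA was -0.22 ± 0.40, and -0.92 ± 0.25 without replicate 3, then called (edgeR adjusted p 0.015). Its KO call ended without KO DSS replicate 1 or 2 or either KO untreated library, and its WT call without WT DSS replicate 2 or 3 or either WT untreated library (edgeR adjusted p up to 0.16). *Lama4*, *Lamb1*, *Lamc1* and *Lamc3* were not called in any genotype. Of all 11 laminin chains, 4 rose and 3 fell on average over genotypes.

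Multiplexins are basement membrane collagens that carry sugar chains, with 2 members. *Col18a1* yields the fragment endostatin. *Col18a1* had 26.2, 24.2 and 39.1 CPM with DSS and 24.8 and 25.1 CPM untreated in KO colon, 128, 57.7 and 318 with DSS and 23.1 and 26.5 untreated in VAA colon, and 67.5, 85.2 and 76.5 with DSS and 27.3 and 28.9 untreated in WT colon. VAA and WT DSS libraries were all above the untreated ones, while in KO 2 DSS libraries were above and 1 below. *Col18a1* rose in VAA by 2.75 ± 0.52 (edgeR adjusted p 0.0022), or 1.90 ± 0.30 without replicate 3. It rose by 1.44 ± 0.49 in WT, a call lost without any single library other than the VAA DSS ones (edgeR adjusted p up to 0.21), and was 0.26 ± 0.48 in KO. *Col15a1*, its relative in vessels and muscle, was lower with DSS in KO and WT. *Col15a1* had 19.3, 15.3 and 25.6 CPM with DSS and 32.0 and 32.7 CPM untreated in KO colon, 26.0, 16.7 and 57.8 with DSS and 35.1 and 38.0 untreated in VAA colon, and 17.2, 22.5 and 18.2 with DSS and 37.9 and 43.2 untreated in WT colon. The fold change was -0.69 ± 0.37 in KO (not called), -0.14 ± 0.37 in VAA (not called) and -1.07 ± 0.37 in WT (edgeR adjusted p 0.046). The WT call was likewise lost without any single library other than the VAA DSS ones (adjusted p up to 0.19), and without VAA DSS replicate 3 the gene was called in all 3 genotypes, at -0.78 ± 0.23 in VAA.

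None of the 10 fibrillar collagen genes was called in KO, in WT or on average over genotypes by edgeR, and 1, *Col27a1*, rose in VAA. At an unadjusted p under 0.05 there were 0 in KO, 5 in VAA, 1 in WT and 0 on average. Of all genes 26.6%, 32.8%, 38.9% and 50.2% passed that threshold. DESeq2 called 0, 2, 0 and 0, against 14.3%, 23%, 29.2% and 43.6% of all genes. *Col3a1* and *Col1a2* encode chains of collagens III and I. *Col3a1* had 483, 408 and 611 CPM with DSS and 606 and 1002 CPM untreated in KO colon, 944, 576 and 1324 with DSS and 798 and 803 untreated in VAA colon, and 558, 929 and 551 with DSS and 846 and 998 untreated in WT colon. *Col1a2* had 177, 127 and 217 CPM with DSS and 193 and 272 CPM untreated in KO colon, 335, 182 and 598 with DSS and 251 and 236 untreated in VAA colon, and 185, 258 and 167 with DSS and 301 and 283 untreated in WT colon. DSS and untreated ranges overlapped for *Col3a1* in every genotype, with VAA DSS replicate 3 the highest library. The fold changes of *Col3a1* were -0.68 ± 0.32 in KO, 0.24 ± 0.33 in VAA, or -0.08 ± 0.30 without VAA DSS replicate 3, and -0.44 ± 0.32 in WT, and those of *Col1a2* -0.42 ± 0.37 in KO, 0.61 ± 0.38 in VAA, or 0.08 ± 0.29 without VAA DSS replicate 3, and -0.52 ± 0.37 in WT. *Col27a1* rose by 1.27 ± 0.39 in VAA, and by 0.65 ± 0.24 without replicate 3, not called (edgeR adjusted p 0.059). That call was also lost without VAA untreated replicate 1 or 2 (adjusted p 0.12 and 0.19). Class medians were -0.45 in KO, 0.64 in VAA, or 0.16 without VAA DSS replicate 3, and -0.48 in WT. Without that library 1 fibrillar gene, *Col5a3*, fell in KO (-0.81 ± 0.25, edgeR adjusted p 0.035).

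Collagen VI forms beaded microfilaments around cells. *Col6a1* had 61.9, 50.8 and 92.8 CPM with DSS and 108 and 125 CPM untreated in KO colon, 121, 70.6 and 321 with DSS and 108 and 124 untreated in VAA colon, and 79.0, 75.6 and 86.4 with DSS and 150 and 146 untreated in WT colon. *Col6a3* had 116, 95.3 and 152 CPM with DSS and 155 and 191 CPM untreated in KO colon, 186, 107 and 322 with DSS and 170 and 168 untreated in VAA colon, and 114, 139 and 137 with DSS and 220 and 224 untreated in WT colon. KO and WT DSS libraries were below the untreated ones for both genes, while VAA DSS replicate 3 was above all others. *Col6a1* was not called in any genotype (-0.77 ± 0.44 in KO, 0.56 ± 0.45 in VAA, or -0.28 ± 0.26 without VAA DSS replicate 3, and -0.88 ± 0.43 in WT), and without VAA DSS replicate 3 it fell in KO (-0.76 ± 0.23) and WT (-0.87 ± 0.23, edgeR adjusted p 0.032 and 0.0093). *Col6a3* had -0.52 ± 0.32 in KO, 0.28 ± 0.33 in VAA, or -0.21 ± 0.24 without VAA DSS replicate 3, and -0.77 ± 0.32 in WT, with a call in WT without VAA DSS replicate 2 or 3 (adjusted p 0.019 and 0.013). *Col6a4* rose in VAA (0.95 ± 0.28) and on average (0.70 ± 0.16, edgeR adjusted p 0.0035), and its VAA call ended without any 1 of VAA DSS replicates 1 and 3 and the VAA untreated libraries (adjusted p up to 0.17). *Col6a5* fell in WT (-1.46 ± 0.51, edgeR adjusted p 0.048), a call lost without any single library other than VAA DSS replicates 2 and 3 and WT untreated replicate 1. Without WT untreated replicate 2 the value was -0.66 (edgeR adjusted p 0.49).

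Of the 7 collagens that associate with fibrils, 3 fell on average: *Col14a1*, *Col12a1* and *Col20a1*. *Col16a1* belongs to the same class. *Col12a1* had 53.0, 56.4 and 87.0 CPM with DSS and 95.9 and 117 CPM untreated in KO colon, 53.5, 59.3 and 115 with DSS and 95.7 and 114 untreated in VAA colon, and 67.3, 67.5 and 61.9 with DSS and 106 and 122 untreated in WT colon. *Col16a1* had 15.9, 12.8 and 19.5 CPM with DSS and 39.6 and 34.8 CPM untreated in KO colon, 33.3, 19.1 and 104 with DSS and 35.6 and 42.8 untreated in VAA colon, and 23.7, 20 and 18.1 with DSS and 47.9 and 38.4 untreated in WT colon. KO and WT DSS libraries were below the untreated ones for both. *Col12a1* fell on average (-0.66 ± 0.16, edgeR adjusted p 0.0053), with -0.70 ± 0.28 in KO, -0.47 ± 0.28 in VAA, or -0.90 ± 0.20 without VAA DSS replicate 3, and -0.80 ± 0.28 in WT, none of which was called. It was called in all 3 genotypes when VAA DSS replicate 3 was left out (edgeR adjusted p 0.015, 0.0048 and 0.0038). *Col16a1* had -1.21 ± 0.48 in KO, 0.41 ± 0.49 in VAA, or -0.58 ± 0.25 without VAA DSS replicate 3, and -1.07 ± 0.48 in WT, called in KO and WT without VAA DSS replicate 2 (edgeR adjusted p 0.037 and 0.034) or 3 (0.0027 and 0.0024). *Col20a1* fell in WT (-1.47 ± 0.40) and on average (-1.10 ± 0.23), and the WT call was lost without WT DSS replicate 1 or 3 or either WT untreated library (edgeR adjusted p up to 0.085). Of the 6 short chain and anchoring collagens, *Col8a1* and *Col8a2*, which form networks in vessel walls, fell on average and none rose. *Col8a1* had 8.38, 6.41 and 9.29 CPM with DSS and 11.8 and 21.3 CPM untreated in KO colon, 5.48, 6.94 and 12.7 with DSS and 14.8 and 14.5 untreated in VAA colon, and 9.48, 9.35 and 6.02 with DSS and 18.0 and 18.6 untreated in WT colon. *Col26a1* had 6.75, 6.07 and 5.72 CPM with DSS and 10.2 and 3.21 CPM untreated in KO colon, 7.65, 6.24 and 9.70 with DSS and 7.94 and 4.17 untreated in VAA colon, and 6.56, 4.75 and 5.49 with DSS and 7.66 and 5.25 untreated in WT colon. *Col8a1* was below its untreated libraries in every DSS library, and *Col26a1* overlapped in each genotype. *Col8a1* fell in WT (-1.14 ± 0.33, edgeR adjusted p 0.023), a call lost without WT DSS replicate 3 or either WT untreated library (adjusted p up to 0.1), and was -1.04 ± 0.33 in KO and -0.82 ± 0.34 in VAA. Leaving out VAA DSS replicate 3 it was called in KO (-1.04 ± 0.26, edgeR adjusted p 0.012) and VAA (-1.24 ± 0.29, 0.0063). Its partner *Col8a2*, at most 5.82 CPM, had -2.53 ± 0.46 in KO, -1.07 ± 0.45 in VAA and -2.77 ± 0.48 in WT, called in KO and WT, with -1.62 ± 0.41 in VAA and a call there without VAA DSS replicate 3 (edgeR adjusted p 0.0091), and the KO call was lost without KO untreated replicate 1 (edgeR adjusted p 0.065). The fold changes of *Col26a1* were -0.12 ± 0.40 in KO, 0.36 ± 0.41 in VAA, or 0.19 ± 0.42 without VAA DSS replicate 3, and -0.20 ± 0.40 in WT.

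Transmembrane collagens span the cell surface, and none of the 4 was called with DSS in any genotype by edgeR. At an unadjusted p under 0.05 there were 0 in KO, 0 in VAA and 1 in WT, against 26.6%, 32.8% and 38.9% of all genes. DESeq2 called 0, 0 and 0, against 14.3%, 23% and 29.2% of all genes. *Col17a1* had 4.27, 5.05 and 2.90 CPM with DSS and 4.79 and 3.35 CPM untreated in KO colon, 2.65, 3.99 and 4.23 with DSS and 5.44 and 3.66 untreated in VAA colon, and 3.57, 1.69 and 4.25 with DSS and 7.11 and 4.64 untreated in WT colon. *Col23a1* had 2.56, 3.14 and 2.30 CPM with DSS and 5.43 and 2.43 CPM untreated in KO colon, 2.65, 2.95 and 11.4 with DSS and 4.15 and 4.94 untreated in VAA colon, and 2.19, 2.61 and 2.83 with DSS and 4.44 and 4.98 untreated in WT colon. For both genes every WT DSS library was below the WT untreated ones, and the KO and VAA groups overlapped. *Col17a1*, of hemidesmosomes, had 0.00 ± 0.39 in KO, -0.34 ± 0.39 in VAA and -0.88 ± 0.38 in WT. *Col23a1* had -0.56 ± 0.54 in KO, 0.29 ± 0.53 in VAA, or -0.70 ± 0.33 without VAA DSS replicate 3, and -0.89 ± 0.53 in WT, and fell in WT (-0.88 ± 0.30, edgeR adjusted p 0.035) once VAA DSS replicate 3 was left out. All levels of *Col17a1* were at or below 7.11 CPM.

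Elastic fibres are built from elastin on a fibrillin scaffold. *Fbn1* had 69.2, 47.4 and 77.0 CPM with DSS and 127 and 226 CPM untreated in KO colon, 88.6, 80.4 and 169 with DSS and 146 and 157 untreated in VAA colon, and 73.9, 112 and 69.8 with DSS and 182 and 223 untreated in WT colon. *Eln* had 31.4, 15.4 and 27.7 CPM with DSS and 49.1 and 69.9 CPM untreated in KO colon, 61.4, 29.3 and 216 with DSS and 48.5 and 48.6 untreated in VAA colon, and 37.9, 61.7 and 24.7 with DSS and 76.5 and 79.2 untreated in WT colon. *Fbn1* (fibrillin-1) was lower in every KO and WT DSS library than in the untreated ones, and so was *Eln* (elastin). *Fbn1* fell in KO (-1.45 ± 0.33) and WT (-1.24 ± 0.33, edgeR adjusted p 0.016 and 0.014), and was -0.43 ± 0.33 in VAA. Once VAA DSS replicate 3 was left out it fell in VAA too (-0.84 ± 0.28, edgeR adjusted p 0.039). The KO call was lost without KO DSS replicate 2 (-1.27, adjusted p 0.063) or KO untreated replicate 2 (-0.97, 0.16), and the WT call without WT untreated replicate 2 (-1.09, 0.1). *Eln* was not called (-1.26 ± 0.61 in KO, 1.07 ± 0.63 in VAA, or -0.10 ± 0.41 without VAA DSS replicate 3, and -0.91 ± 0.60 in WT), and fell in KO without VAA DSS replicate 3 (-1.26 ± 0.37, edgeR adjusted p 0.027).

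Lysyl oxidases cross-link collagen and elastin. *Lox* had 9.31, 9.35 and 5.2 CPM with DSS and 7.37 and 9.14 CPM untreated in KO colon, 22.8, 20.9 and 71.2 with DSS and 9.09 and 8.86 untreated in VAA colon, and 19.8, 35.9 and 15.3 with DSS and 5.61 and 9.42 untreated in WT colon. *Loxl2* had 39.0, 41.3 and 53.1 CPM with DSS and 49.2 and 61.7 CPM untreated in KO colon, 74.9, 56.8 and 118 with DSS and 48.2 and 45.6 untreated in VAA colon, and 65.0, 61.1 and 62.2 with DSS and 57.5 and 75.7 untreated in WT colon. All VAA and WT DSS libraries were above the untreated ones for *Lox*, and in KO the groups overlapped. *Loxl2* was above its untreated libraries in every VAA DSS library and overlapped in KO and WT. *Lox* rose in VAA (2.08 ± 0.54, or 1.28 ± 0.37 without VAA DSS replicate 3) and WT (1.65 ± 0.53, edgeR adjusted p 0.015 and 0.035) and was -0.05 ± 0.52 in KO. The VAA call was lost without VAA untreated replicate 1 or 2 (adjusted p up to 0.1) and the WT call without WT DSS replicate 1 or 2 or either WT untreated library (up to 0.25). *Loxl2* rose in VAA by 0.83 ± 0.25, or 0.49 ± 0.18 without replicate 3, when it was not called (edgeR adjusted p 0.062), nor without VAA untreated replicate 1 or 2 (adjusted p 0.14 and 0.17). *Loxl1* was not called (-1.31 ± 0.49 in KO, 0.51 ± 0.49 in VAA, or -0.30 ± 0.33 without VAA DSS replicate 3, and -1.07 ± 0.48 in WT), and without VAA DSS replicate 2 or 3 it fell in KO and WT (edgeR adjusted p 0.034 and 0.038, or 0.01 and 0.014).

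*Fn1* and *Tgfbi* are adhesive glycoproteins, the second induced by TGF-beta. *Fn1* had 253, 141 and 361 CPM with DSS and 499 and 654 CPM untreated in KO colon, 377, 335 and 1281 with DSS and 479 and 683 untreated in VAA colon, and 359, 314 and 265 with DSS and 910 and 871 untreated in WT colon. *Tgfbi* had 40.8, 42.4 and 68.8 CPM with DSS and 42.7 and 46.7 CPM untreated in KO colon, 172, 110 and 184 with DSS and 42.8 and 45.6 untreated in VAA colon, and 93.2, 113 and 75.1 with DSS and 41.8 and 49.3 untreated in WT colon. *Fn1* was below every untreated library in the KO and WT DSS libraries, and highest of all in VAA DSS replicate 3. It fell in WT (-1.51 ± 0.48, edgeR adjusted p 0.034) and was -1.20 ± 0.48 in KO and 0.19 ± 0.49 in VAA. Leaving out VAA DSS replicate 3, *Fn1* in VAA was -0.71 ± 0.32, with groups apart and no call (edgeR adjusted p 0.11). The WT call ended without any 1 of the 5 WT libraries (adjusted p up to 0.13), and without VAA DSS replicate 3 the gene fell in KO (adjusted p 0.0099). *Tgfbi* was above all untreated libraries in every VAA and WT DSS library and in 1 of 3 KO DSS libraries. It rose in VAA (1.81 ± 0.27) and WT (1.04 ± 0.26, edgeR adjusted p 0.00041 and 0.011), and was 0.18 ± 0.25 in KO. The WT call was lost without WT untreated replicate 1 (0.91, adjusted p 0.11) or 2 (1.16, 0.05). *Sparc* (-0.70 ± 0.35 in KO, 0.53 ± 0.36 in VAA, or -0.01 ± 0.25 without VAA DSS replicate 3, and -0.39 ± 0.35 in WT) and *Tnc*, tenascin C (-1.08 ± 0.47 in KO, 1.06 ± 0.49 in VAA, or 0.10 ± 0.26 without VAA DSS replicate 3, and -0.51 ± 0.47 in WT), were not called, and both fell in KO without VAA DSS replicate 3 (edgeR adjusted p 0.046 and 0.0063). Leukocyte markers, 6 genes, summed to 244 to 351 CPM in KO DSS against 112 to 230 in KO untreated libraries, 377 to 641 against 166 to 230 in VAA, and 348 to 534 against 141 to 191 in WT. Their part in the rise of *Tgfbi* and *Lox* was not tested.

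Under DSS, KO colon was compared with VAA colon to set absence of the protein against presence of an inactive one. In all libraries 32 members were lower in KO and 0 higher (9.41% of all genes were lower and 6.01% higher, 15.4% in all), and without VAA DSS replicate 3 there were 17 lower and 0 higher (backgrounds 6.6% lower and 5.01% higher, 11.6% in all). The 17 were all among the 32. The median member was -0.96, and -0.48 without replicate 3, where the median of all genes was -0.01 and -0.02. Without KO DSS replicate 1 or 2 there were 12 calls, with no share over all genes given for those fits. The 17 included *Col18a1*, *Col27a1*, *Col4a1*, *Col4a2*, *Col5a2*, *Col5a3*, *Dcn*, *Lama1*, *Lama5*, *Lamb1*, *Lamc1*, *Lox*, *Loxl1*, *Loxl2*, *Tgfbi* and *Tnc*. Of them *Col18a1*, *Col4a1*, *Col4a2*, *Col5a3*, *Dcn*, *Lama1*, *Lama5*, *Lox*, *Tgfbi* and *Tnc* kept the call whichever library was left out. The 15 that were lost with replicate 3 included 5 of 8 fibrillar collagens, *Col6a1*, *Col6a2*, *Fn1*, *Eln*, *Sparc* and *Lum*.

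The fold changes, KO over VAA under DSS, were -2.49 ± 0.44 for *Col18a1*, -1.78 ± 0.32 for *Lama5*, -2.12 ± 0.42 for *Col4a1* and -1.90 ± 0.41 for *Lama1* (edgeR adjusted p 0.0035, 0.0043, 0.0063 and 0.0087). Without replicate 3 they were -1.63 ± 0.26, -1.15 ± 0.19, -1.25 ± 0.24 and -1.64 ± 0.41. *Tgfbi* had -1.62 ± 0.23 and, without replicate 3, -1.47 ± 0.23 (edgeR adjusted p 0.0012 and 0.002), and *Lox* -2.26 ± 0.47 and -1.45 ± 0.33. For these genes each KO DSS library was below each VAA DSS library. *Dcn* encodes decorin, which binds collagen and TGF-beta. *Dcn* had 90.6, 75.5 and 73.5 CPM with DSS and 130 and 192 CPM untreated in KO colon, 155, 233 and 352 with DSS and 191 and 207 untreated in VAA colon, and 181, 197 and 144 with DSS and 210 and 175 untreated in WT colon. KO DSS libraries were the lowest of all 15. *Dcn* was -1.63 ± 0.25 against VAA and -1.27 ± 0.20 without replicate 3 (edgeR adjusted p 0.0017 and 0.0017), and with DSS it fell in KO (-1.01 ± 0.27) but was 0.31 ± 0.27 in VAA, or -0.04 ± 0.22 without VAA DSS replicate 3, and -0.15 ± 0.27 in WT. The KO fall lost its call without any 1 of the 5 KO libraries (-0.70 without KO untreated replicate 2, edgeR adjusted p 0.23). *Col1a2* and *Col3a1*, by contrast, had -1.10 ± 0.34 and -0.92 ± 0.29 and were no longer called without replicate 3 (-0.57 ± 0.26 and -0.60 ± 0.28, adjusted p 0.19 and 0.19). *Col1a2* lost its call without any single library other than VAA DSS replicate 2 and WT DSS replicate 2, and *Col3a1* without any other than these and the KO untreated ones.

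**Figure D5:**
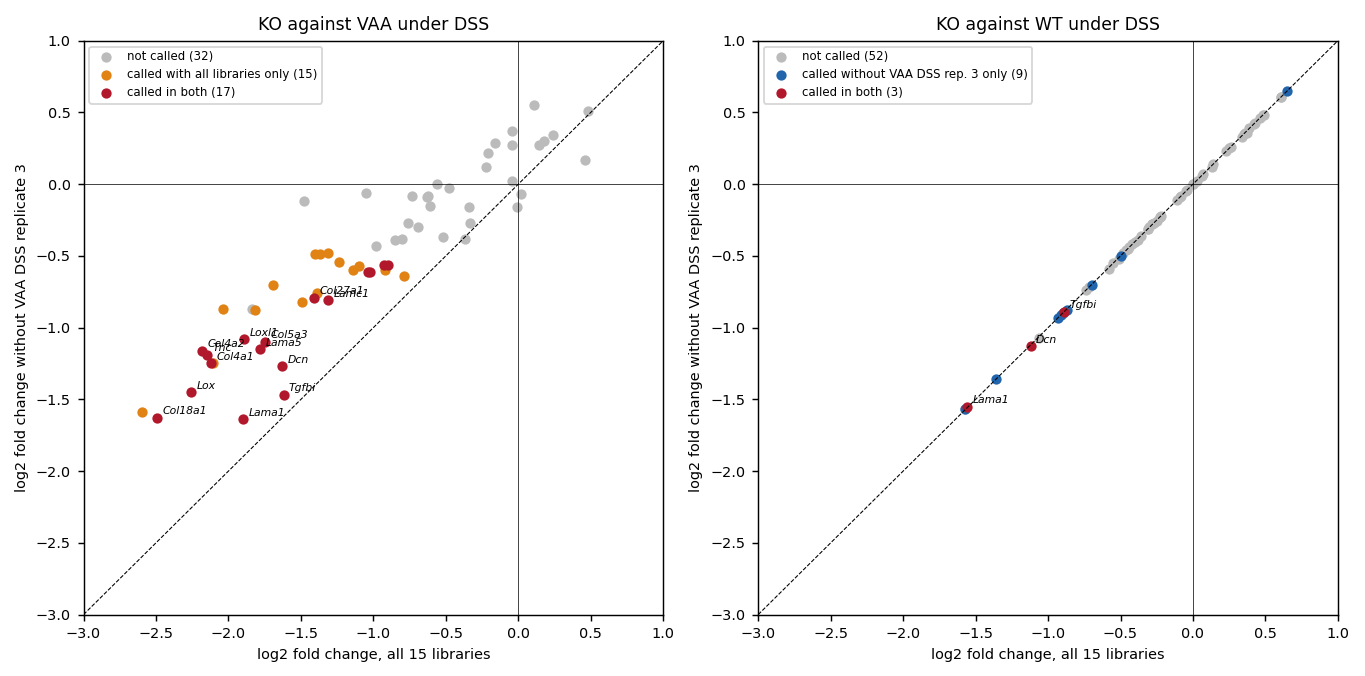
Log2 fold change of each of the 64 genes with all 15 libraries (horizontal axis) and without VAA DSS replicate 3 (vertical axis), for KO against VAA (left) and KO against WT (right) under DSS, coloured by which fit called the gene, with the dashed line at equality. On the left 17 genes are called in both fits and 15 in the full one alone; on the right 3 are called in both and 9 once the library is left out.

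KO against WT under DSS called 3 members, all lower in KO (4.69%, against 5.67% of all genes, of which 3.21% higher and 2.46% lower): *Dcn* (-1.12 ± 0.25), *Lama1* (-1.56 ± 0.41) and *Tgfbi* (-0.89 ± 0.23, edgeR adjusted p 0.021, 0.042 and 0.039). VAA DSS replicate 3 is in neither group and enters only through the shared spread. With it left out 12 were called (18.8%, against 15.6% of all genes, 6.87% higher and 8.7% lower): *Col4a6* was higher in KO (0.65 ± 0.19, edgeR adjusted p 0.036), and *Col18a1*, *Col4a1*, *Col4a2*, *Dcn*, *Lama1*, *Lama5*, *Lamc1*, *Lox*, *Loxl2*, *Tgfbi* and *Tnc* were lower. All fold changes moved by at most 0.01. The largest of these were -1.57 ± 0.31 for *Lox*, -1.55 ± 0.38 for *Lama1* and -1.36 ± 0.24 for *Col18a1*. No call was made without KO DSS replicate 1, KO DSS replicate 2, WT DSS replicate 1 or WT DSS replicate 2, 1 without either KO or either WT untreated library, and 6 without VAA DSS replicate 2. DESeq2 called 6.

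VAA against WT under DSS called 0 members by edgeR and 0 by DESeq2, where 0.00572% and 0.212% of all genes were called. At an unadjusted p under 0.05 there were 33 members (51.6%, against 16.3% of all genes), and 63 of 64 were above 0, with a median of 0.72. Without VAA DSS replicate 3 the median was 0.24, 5 had an unadjusted p under 0.05 (7.81%, against 5.58% of all genes) and 0 were called, against 0.00576% of all genes. Without VAA DSS replicate 2, when the VAA DSS group held replicates 1 and 3, there were 22 calls. The share of all genes called in that fit is not given here, so the 22 cannot be set against it. In untreated colon KO against WT and VAA against WT called no member by edgeR (0 calls each, 0 with an unadjusted p under 0.05, and 0 by DESeq2), with medians of -0.26 and -0.22. Of all genes edgeR called 0% in both as well, and DESeq2 called 0.0515% and 0.0114%. At an unadjusted p under 0.05 there were 2.01% and 1.33% of all genes.

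Whether genotype changed the DSS effect was tested by interactions. Neither KO against WT (0 calls by edgeR and by DESeq2, with 0% and 0.801% of all genes called, and 7 members, 10.9%, at an unadjusted p under 0.05, against 9.93% of all genes) nor VAA against WT (0 calls by both, with 0% of all genes called, and 18 members, 28.1%, at an unadjusted p under 0.05, against 7.2% of all genes, or 4.69% against 4.68% without VAA DSS replicate 3) gave a call. A comparison of KO with VAA, chosen after the data were seen, gave 0 calls by edgeR and 5 by DESeq2 (*Col18a1*, *Col5a3*, *Dcn*, *Lama5* and *Tgfbi*; 7.81% of members, against 3.04% of all genes). At an unadjusted p under 0.05 there were 27 members (42.2%, against 14.5% of all genes). The edgeR background was 0.0687% of all genes (0.0229% higher and 0.0458% lower), and 0.507% without VAA DSS replicate 3 (0.19% higher and 0.317% lower). *Lama5* stood at -2.28 ± 0.51 and *Tgfbi* at -1.63 ± 0.36 (edgeR adjusted p 0.089 and 0.088). Without VAA DSS replicate 3 *Lama5* was called (-1.65 ± 0.29, edgeR adjusted p 0.028) and it was the only one. Without VAA DSS replicate 2 there were 16, a fit for which the share over all genes is not given here. Epithelial marker sums were higher in KO DSS (8480 to 10000 CPM) than in VAA DSS (5510 to 7600) or WT DSS (6260 to 6760) libraries, with 4 of the 7 higher against VAA and 2 against WT. Mesothelial markers summed to 4.5 to 6.47 CPM in KO DSS, 14.3 to 97.7 in VAA DSS and 12 to 16.9 in WT DSS libraries, and enteric glial markers to 4.43 to 6.62, 12.6 to 56.7 and 10 to 15.2. Of 8 fibroblast markers 3 were lower in KO than in VAA colon under DSS, with sums of 241 to 259 CPM in KO DSS and 280 to 476 in VAA DSS libraries. Of 6 endothelial markers 3 were lower, with sums of 50 to 62.9 CPM in KO DSS and 67.8 to 222 in VAA DSS libraries. In VAA DSS replicates 1 and 2 the fibroblast sums were 283 and 280 CPM and the endothelial sums 93.7 and 67.8. Mesothelial sums there were 45.9 and 14.3 CPM, and glial sums 12.6 and 12.7. Marker calls without VAA DSS replicate 3 are not given here. The part of these marker differences in the genes lower in KO was not tested.

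Genes that make, hold and read the matrix were counted from 4 lists, on average over genotypes, where 22.5% of all genes rose and 20% fell (27.6% and 25.2% without VAA DSS replicate 3). Among 23 genes of collagen biosynthesis 5 rose and 5 fell, and 10 fell without VAA DSS replicate 3. *P4hb*, a subunit of prolyl 4-hydroxylase, rose by 0.94 ± 0.08, *Plod3*, a lysyl hydroxylase, by 0.59 ± 0.13 and *Ppib*, a proline isomerase, by 0.33 ± 0.08 (edgeR adjusted p 1.5e-06, 0.0027 and 0.0065). Among 24 matrix receptors 7 rose and 10 fell, or 7 and 13 without that library. *Itga3*, the integrin alpha 3 subunit that binds laminins, rose by 0.82 ± 0.07, while the syndecan *Sdc2* fell by 1.24 ± 0.10 and *Itga7*, a laminin receptor of muscle, by 1.52 ± 0.19 (edgeR adjusted p 1.2e-06, 1.2e-06 and 3.6e-05). Of 13 basement membrane partners 1 rose, *Smoc1* (1.35 ± 0.29), and 4 fell, led by *Fras1* (-1.90 ± 0.28) and *Frem2* (-1.23 ± 0.18), and without that library 1 rose and 6 fell. Of 18 genes of the TGF-beta axis 4 rose and 6 fell, or 5 and 9 without that library. The ligand *Tgfb1* rose by 0.68 ± 0.11, its relative *Tgfb2* fell by 1.15 ± 0.22 and the latency protein *Ltbp4* by 1.76 ± 0.25 (edgeR adjusted p 0.0003, 0.00095 and 8.7e-05). In KO against VAA colon under DSS 8 of 23, 10 of 24, 6 of 13 and 12 of 18 of these lists were lower and 0, 2, 0 and 1 higher (9.41% of all genes lower and 6.01% higher). Leaving out VAA DSS replicate 3, these were 2, 6, 1 and 6 lower and 0, 2, 1 and 1 higher (6.6% of all genes lower and 5.01% higher).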

How the data were processed

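RNA from 15 mouse colon samples was sequenced from Illumina TruSeq Total RNA libraries as 76-base paired ends, per the labels' protocols. The authors deposited a table of estimated counts per gene symbol and a table of log2 CPM values. kallisto 0.46 and the build mm10 are named in the submitters' processing notes. No source used here gives the transcript annotation, the summing to genes or a strand setting. All the deposited counts were whole numbers, so rounding changed 0 values. The deposited log2 table served only to choose the genes, and CPM values printed here were computed from the counts.

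Counts were filtered with filterByExpr (17477 genes left), scaled by TMM and fitted with edgeR 4.0.16 in R 4.3.3 as 6 groups over all 15 libraries, with 9 residual degrees of freedom and a common dispersion of 0.0457. The quasi-likelihood test was made for 12 comparisons, with Benjamini-Hochberg adjusted p-values called under 0.05. The KO against VAA interaction was added after the data were seen. Alternatives were DESeq2 1.42.0, its size factors, no filter, a replicate block, a sex term (sex read from Y-linked genes) and leaving out every library singly. The procedure was tested on simulated data. Replicates differed beyond sampling noise (chi-square per degree of freedom 9.02 to 84.2), so none was merged. Totals of 10.56 to 17.54 M counts set the counting precision, and intervals for low genes are wider. 0 columns belonged to other samples.

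Genes given in every library were the 2 of highest mean log2 CPM in each class and, in each comparison, the 3 called members of largest positive and of largest negative fold change, provided that mean log2 CPM was 2 or more. The 12 singly named genes all have their DSS effect. The genes, marker lists and pathway lists were chosen with earlier results of these data known. Genes on lists that are no matrix members were named by smallest p. The results of 1 member are not reported here; it stays in the counts over all 64 genes.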

Additional observations from a re-analysis of the deposited data

How the results depend on the processing

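Apart from left-out libraries, these settings moved a count of matrix genes called by more than 1.5 times. With sex as a covariate, DSS in WT called 13 and DSS in KO 4. With the replicate number as a replicate block, DSS in KO called 20. DESeq2 called 6 in KO against WT under DSS, 9.38% of members against 10% of all genes. It called 5 in the KO against VAA interaction (7.81% against 3.04%), where leaving out the expression filter gave 2. The cause of these moves was not tested. Shares over all genes are given only for the full fit, the fit without VAA DSS replicate 3 and DESeq2.

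With each library left out in turn, the count ran from 8 to 28 for DSS in WT, 8 to 26 in VAA, 4 to 27 in KO and 23 to 37 on average. Under DSS it ran from 0 to 12 for KO against WT, 0 to 22 for VAA against WT and 12 to 40 for KO against VAA. It stayed at 0 for both untreated comparisons and for the KO and VAA interactions, and ran from 0 to 16 for the KO against VAA interaction. Of 161 fold changes followed, 51 kept their direction and side of the threshold under all 20 alternatives. Of the 161, 3 changed sign under some alternative, and none of the 3 was called with all libraries in: *Col15a1* in VAA was 0.02 and 0.19 without VAA DSS replicates 1 and 2 (range over single omissions -0.78 to 0.19), *Lamb2* in VAA 0.1 without VAA DSS replicate 2 (-0.92 to 0.1), and *Col7a1* on average 0.05 without VAA untreated replicate 1 (-0.65 to 0.05). Of values outside these 161, 18 of the 64 DSS fold changes in VAA turned when VAA DSS replicate 3 was left out, and none of the 18 was called with or without it.

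Over 33 pairs of same-numbered libraries the correlation of residuals ran from -0.16 to 0.31, and 8 were over 0.1. The numbers were not taken to pair the samples. No value for differently numbered libraries is given here, so these correlations do not show whether the samples are paired. The 2 untreated libraries per genotype limit every DSS comparison.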
